A study of Mus musculus with 12 samples.

Results

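Proliferation in sorted mouse prostate luminal cells was read here from 40 genes of DNA replication, mitosis and cell cycle control, chosen by symbol and found as 40 Ensembl gene identifiers among the 48795 counted in the series. Luminal cells are the secretory epithelial cells that line the prostate ducts. The cells came from the prostates of wild type C57BL/6 mice aged 6 to 8 weeks, and all were negative for CD31, CD45 and Ter119, proteins of endothelial, white and red blood cells. They were sorted into LY6D+ and LY6D- cells, each at SCA1low, SCA1int and SCA1high, where SCA1 is the product of Ly6a, with 2 libraries per population and 12 in all. Whether the replicates came from separate animals or from pools is not stated in the labels. The p-values below therefore reflect the spread between libraries, which may be technical. RNA (10 to 20 ng) was read as tags at the 3' ends of transcripts (QuantSeq 3' FWD), so each RNA gives a tag whatever its length, and levels are compared between genes without a length correction. Levels are given as CPM, counts relative to the library total after TMM scaling. Of the 40 genes, 35 passed the filter on low counts and were tested, out of 15270 genes tested in all. As RNA was measured in bulk, fewer cells of a type and less RNA per cell cannot be told apart.

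Cells enter division when D-type cyclins with CDK4 or CDK6 phosphorylate the retinoblastoma protein and release E2F factors, which turn on the genes of DNA replication. Cyclin E and CDK2 start S phase, MCM proteins license and unwind the origins, and cyclins A and B with CDK1 bring on mitosis. The proteins p21, p27 and p57 (Cdkn1a, Cdkn1b and Cdkn1c) inhibit the kinases. In the adult mouse prostate most luminal cells are known to divide rarely. Transcripts of replication and mitosis are made mainly in dividing cells, while D-type cyclins and CDK inhibitors are also made by resting cells.

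Genes of replication and mitosis are known to share promoter elements, E2F words in replication genes and CCAAT and CHR words in mitotic genes, and the promoters are shown for that reason. RefSeq promoters (GRCm38.p6, 250 bases before to 50 after the start) were at hand for 33 of the 40 genes, 36 promoters in all. Ccnd1, Ccnd2, Ccna2, Ccne2, Mcm4, Aurkb and Cdkn1c were not among them. On either strand, an E2F word (TTTGGCGC, TTTGCCGC, TTTCGCGC or TTTCCCGC) was found in 22.2% of the 36 promoters, against 2.26% of all 32851 promoters. The CCAAT word was found in 66.7%, against 37.4%, and a CHR word (TTTGAA or TTCGAA) in 36.1%, against 19.2%. E2F words stood in 6 of 8 promoters of replication licensing genes, and a CHR word in 11 of 13 promoters of mitotic genes. The promoters of Mcm6, a subunit of the MCM helicase, of Cdk1, the mitotic kinase, and of Top2a, the topoisomerase that untangles chromosomes, are printed as members among the more abundant of their roles that hold such words. Capitals mark the words on either strand, and overlapping words run together. The windows are chr1:128359656-128359955 for Mcm6, chr10:69352863-69353162 for Cdk1 and chr11:99024140-99024439 for Top2a, each read on the minus strand.
Mcm6: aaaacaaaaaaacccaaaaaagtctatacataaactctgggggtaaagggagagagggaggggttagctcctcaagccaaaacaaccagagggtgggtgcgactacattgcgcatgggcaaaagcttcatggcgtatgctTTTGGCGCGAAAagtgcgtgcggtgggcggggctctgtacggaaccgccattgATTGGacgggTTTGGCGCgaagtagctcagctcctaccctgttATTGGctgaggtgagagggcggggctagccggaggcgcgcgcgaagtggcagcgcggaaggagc
Cdk1: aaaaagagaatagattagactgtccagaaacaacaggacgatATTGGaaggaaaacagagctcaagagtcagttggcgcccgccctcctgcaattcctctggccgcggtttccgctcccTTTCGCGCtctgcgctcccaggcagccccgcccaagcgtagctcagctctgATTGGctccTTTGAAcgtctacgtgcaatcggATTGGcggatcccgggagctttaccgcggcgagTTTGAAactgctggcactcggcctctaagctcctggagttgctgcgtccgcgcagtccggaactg
Top2a: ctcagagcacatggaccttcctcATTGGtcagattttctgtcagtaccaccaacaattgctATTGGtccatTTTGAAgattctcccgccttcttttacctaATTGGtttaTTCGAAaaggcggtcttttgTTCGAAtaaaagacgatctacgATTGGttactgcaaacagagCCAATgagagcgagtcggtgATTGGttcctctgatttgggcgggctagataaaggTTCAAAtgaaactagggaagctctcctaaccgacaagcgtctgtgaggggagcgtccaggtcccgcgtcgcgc
A match is a description of these letters, not a site or a cause.

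Total counts ran from 8436185 to 20022077 per library, and 17 to 30 of the 40 genes had at least 10 counts in a library. A count of 0 allows a level of up to 3 counts, which is 0.127 to 0.353 CPM (counting error only). Of the libraries, LY6D+ SCA1high replicate 2 had the lowest total and the fewest genes with at least 10 counts, 7512 against 8976 to 12202 in the others. LY6D- SCA1low replicate 2 stood apart in another way. Many cell cycle genes were there at a similar share of their level in LY6D- SCA1high replicate 1: 13.2% for Tyms, 14.9% for Birc5, 17.9% for Cdk1, 20% for Pcna, 22.3% for Ccnd1 and 21.9% for Ccnd2. Others were not, such as Top2a at 284%, Cdt1 at 205% and Cdkn1b at 88.6%. Other pairs were alike too, by genes at 50 CPM or more in 1 library and at 5% of that or less outside the pair. LY6D+ SCA1int replicate 2 held 15 such genes of LY6D+ SCA1high replicate 2 at a median of 6.47% of their level. LY6D- SCA1high replicate 2 held 34 of LY6D- SCA1low replicate 1 at 3.26%. In the first pair Ccnb1 stood at 6.94 against 104 CPM and Mcm2 at 4.5 against 66.6 CPM. Pcna stood at 109 against 1.53 CPM. The causes of these patterns were not tested. LY6D+ SCA1high replicate 2 and LY6D- SCA1low replicate 2 are called the doubted libraries below. The edgeR calls of cyclin and pathway genes are given with and without them, as are several uncalled differences.

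Ccnd1 and Ccnd2 were the most abundant of the tested genes. Ccnd1 averaged 334 CPM over the 12 libraries and Ccnd2 311 CPM, and the other tested genes had lower means, led by Cdkn1a at 98.9 CPM and Ccnd3 at 65.6 CPM. The median of the 35 mean levels was 10.5 CPM, against 12.2 CPM over all tested genes. Cyclin D1, D2 and D3 bind CDK4 and CDK6 and link growth signals to the cell cycle.

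Ccnd2 (chromosome 6, 127125162 to 127152193, minus strand) was low in a single population, the LY6D- SCA1low cells. In LY6D+ cells it stood at 512 and 326 CPM at SCA1low, 321 and 389 CPM at SCA1int, and 251 and 427 CPM at SCA1high. In LY6D- cells it stood at 55.9 and 82 CPM at SCA1low, 237 and 285 CPM at SCA1int, and 374 and 475 CPM at SCA1high. Both LY6D- SCA1low libraries lay below all 10 others. At SCA1low, Ccnd2 was higher in LY6D+ than in LY6D- cells, with a log2 fold change of 2.60 ± 0.52 (SE, edgeR adjusted p = 0.0106). It was the only 1 of the 35 genes called there, where 0.472% of all tested genes were called, 0.38% as higher. By an unadjusted p below 0.05, 2 of 35 were higher (Ccnd2 and Ccnd3), against 12% of all tested genes in either direction and 7.97% as higher. Limma-trend called 1 of 35 (Ccnd2), against 0.373% of all tested genes. Within LY6D- cells it was higher at SCA1high than at SCA1low, with a log2 fold change of 2.62 ± 0.52 (edgeR adjusted p = 0.00769). Again 1 of 35 genes was called, against 0.635% of all tested genes, 0.242% as higher, and 3 had an unadjusted p below 0.05 (Ccnd1, Ccnd2 and Ccnd3), against 6.65%. DESeq2 called 2 (Ccnd2 and Ccnb2), against 4.74% of all tested genes, and limma-trend 1 (Ccnd2), against 0.406%. Within LY6D- cells Ccnb2 had 0 and 18 counts at SCA1high and 0 and 0 at SCA1low. These comparisons share the LY6D- SCA1low libraries. Ccnd2 was also the 1 gene of 35 called in the test of any difference among the 6 populations (edgeR adjusted p = 0.0497), where 1.54% of all tested genes were called. An unadjusted p below 0.05 was found for 7 of 35, against 18.5% of all tested genes, and DESeq2 called 6, against 16.5%, while limma-trend called 0, against 0.779%. Ccnd2 was also called in this test without either or both doubted libraries, and not without LY6D- SCA1low replicate 1.

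Within LY6D+ cells the SCA1high against SCA1low value of Ccnd2 was -0.31 ± 0.49 on the log2 scale (edgeR adjusted p = 0.845). The difference between this step and that in LY6D- cells was -2.93 ± 0.71, with an edgeR adjusted p of 0.335, so the steps were not shown to differ after adjustment. Without LY6D- SCA1low replicate 2 it was -3.43 ± 0.84 (adjusted p = 0.039), and without LY6D+ SCA1low replicate 2 it was -3.54 ± 0.83 (adjusted p = 0.0422), both called, while with both doubted libraries left out it was -3.68 ± 0.94 (adjusted p = 0.0645). No listed gene was called in that interaction with edgeR, where 0.0393% of all tested genes were, while 2 had an unadjusted p below 0.05 (Ccnd2 and Ccnd3), against 7.6% of all tested genes. DESeq2 called 1 (Ccnb2), against 3.58% of all tested genes, and limma-trend 0, against 0%. In the libraries of this interaction Ccnb2 had 18 counts in LY6D- SCA1high replicate 2 and at most 2 in any other. Without LY6D- SCA1low replicate 2, the Ccnd2 differences were 2.93 ± 0.70 between LY6D states and 2.91 ± 0.70 within LY6D- cells, and both stayed called, as they did with both doubted libraries left out (2.92 and 2.95). The first call was lost with RLE size factors (2.18 ± 0.53, adjusted p = 0.0662) and without LY6D+ SCA1low replicate 1 or LY6D- SCA1low replicate 1 (2.15 and 2.12). The call within LY6D- cells was lost without LY6D- SCA1high replicate 2 or LY6D- SCA1low replicate 1 (2.39 and 2.23).

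Ccnd1 (chromosome 7, 144929931 to 144939925, minus strand) was higher at SCA1high than at SCA1low in both LY6D states. In LY6D+ cells it stood at 182 and 263 CPM at SCA1low, 315 and 312 CPM at SCA1int, and 431 and 668 CPM at SCA1high. In LY6D- cells it stood at 165 and 80.8 CPM at SCA1low, 373 and 319 CPM at SCA1int, and 363 and 539 CPM at SCA1high. All 4 SCA1low libraries lay below the 8 others, while SCA1int and SCA1high overlapped in LY6D- cells. The log2 fold change between SCA1high and SCA1low, averaged over LY6D states, was 1.59 ± 0.35 (edgeR adjusted p = 0.0143). It was the 1 gene of 35 called, against 1.21% of all tested genes, 0.432% as higher. An unadjusted p below 0.05 was found for 5 of 35, all higher at SCA1high. Over all tested genes it was found for 12.1% in either direction and 6.4% as higher. DESeq2 called 3 (Mcm3, Mcm7 and Ccnd1), against 9.87% of all tested genes, and limma-trend 0, against 0.792%. Within LY6D+ cells Ccnd1 had an edgeR adjusted p of 0.578 and within LY6D- cells a log2 fold change of 1.87 ± 0.51 (adjusted p = 0.111), so neither was called. The difference within LY6D- cells was called in 5 of 20 alternatives: with library size only (2.45 ± 0.48, adjusted p = 0.00519) and without any 1 of the LY6D+ SCA1int or SCA1low libraries (adjusted p = 0.0294 to 0.0486). Without LY6D- SCA1low replicate 2 it was 1.44 ± 0.63 (edgeR adjusted p = 0.609). Between LY6D states the Ccnd1 difference was 0.33 ± 0.28 (edgeR adjusted p = 0.564), less than 2 SE from 0.

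Of 20 alternatives, 8 lost the Ccnd1 call, including those without LY6D- SCA1low replicate 2 (1.29 ± 0.40, adjusted p = 0.0734), without LY6D+ SCA1high replicate 2 (1.28 ± 0.43, adjusted p = 0.161), and without both (1.22 ± 0.44, adjusted p = 0.243). All values were above 0, from 1.22 to 2.09.

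Ccnd3 (chromosome 17, 47505051 to 47599691, plus strand) varied more. In LY6D+ cells it stood at 72.6 and 194 CPM at SCA1low, 9.28 and 26 CPM at SCA1int, and 122 and 29.9 CPM at SCA1high. In LY6D- cells it stood at 4.09 and 11 CPM at SCA1low, 114 and 94.1 CPM at SCA1int, and 77.8 and 31.3 CPM at SCA1high. At SCA1low the LY6D+ libraries lay above the LY6D- ones, and at SCA1int below them. The log2 fold changes were 4.14 ± 1.22 (edgeR adjusted p = 0.181) and -2.56 ± 1.13 (adjusted p = 0.665), and neither was called. Of the kinase partners, Cdk4 ranged from 0.353 to 86.1 CPM and Cdk6 from 0.353 to 86.1 CPM over the 12 libraries, and in 2 populations each their replicate libraries were over 10-fold apart (with 0.5 CPM added).

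**Figure D1:**
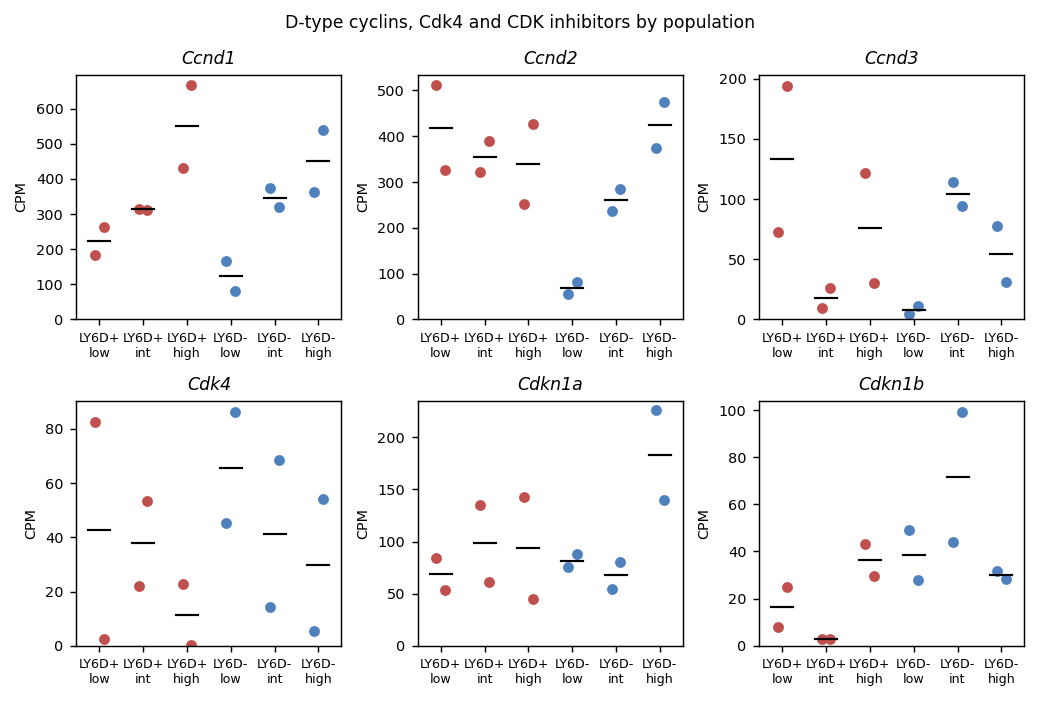
CPM (linear axis) of Ccnd1, Ccnd2, Ccnd3, Cdk4, Cdkn1a and Cdkn1b in each library, LY6D+ (red) left of LY6D- (blue) and SCA1 low to high; points are the 2 libraries of a population and bars their mean. Ccnd2 is at 55.9 and 82 CPM in LY6D- SCA1low libraries and at 237 CPM or more in all others, and Ccnd1 is lowest at SCA1low in both LY6D states.

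Markers of other cell types moved with the same groups. The summed level of 6 basal cell markers (Krt5, Krt14, Krt15, Krt17, Trp63 and Itgb4) averaged 1898, 3009 and 3949 CPM in LY6D+ cells at SCA1low, SCA1int and SCA1high, against 89.9, 1457 and 340 CPM in LY6D- cells. That of 6 endothelial markers averaged 41.3, 68.6 and 179 CPM in LY6D+ cells, against 236, 736 and 2072 CPM in LY6D- cells. That of 6 fibroblast and smooth muscle markers averaged 832, 891 and 943 CPM in LY6D+ cells, against 227, 596 and 435 CPM in LY6D- cells. The basal and fibroblast sums were lowest in the LY6D- SCA1low population, as the means of Ccnd1 and Ccnd2 were, while the endothelial sum was not. Dcn alone averaged 855 of the 891 CPM of the fibroblast sum in LY6D+ SCA1int cells. In LY6D- SCA1low cells it averaged 181 of the 227 CPM. Of the other fibroblast and smooth muscle markers, Col1a1, Col1a2, Acta2 and Myh11 each had their lowest mean in another population. The 5 seminal vesicle markers averaged 8976, 713 and 672 CPM in LY6D+ cells and 3044, 3032 and 421 CPM in LY6D- cells at SCA1low, SCA1int and SCA1high, and 3 of 5 were called lower at SCA1high, against 0.779% of all tested genes. The 6 erythroid markers summed to 697 and 6.84 CPM in the LY6D- SCA1low libraries and to 3.29 to 370 CPM in the others, with 0 of 3 tested called and 0 at an unadjusted p below 0.05 for LY6D at SCA1low. The part of all these markers in the cyclin results was not tested. Of the basal markers, 5 of 6 were called higher in LY6D+ cells and 3 of 6 higher at SCA1high, and of the endothelial markers 4 of 6 were called lower in LY6D+ cells and 3 of 6 higher at SCA1high (edgeR). Over all tested genes, 1.27% were called higher and 1.21% lower in LY6D+ cells, and 0.432% higher at SCA1high. Of the defining markers, Pecam1 (CD31), a protein of the sorting exclusion, was at 401 to 573 CPM in the LY6D- SCA1high libraries, and Ptprc (CD45) at 0 to 0.216 CPM in all libraries. The 6 leukocyte markers, Ptprc among them, summed to 0.235 to 210 CPM per library. Cd52 stood at 204 and 79.2 CPM in LY6D+ SCA1low libraries, and Cd74 reached 31 CPM in LY6D+ SCA1high replicate 2. Lyz2, Tyrobp and Cd3e were at most 6.36 CPM. The 6 luminal markers (Krt8, Krt18, Krt19, Epcam, Cdh1 and Cd24a) summed to 765 to 1870 CPM per library. Cdh1 alone averaged 726 of the 1344 CPM in LY6D+ SCA1high cells. The mean luminal sum in LY6D+ cells was 1418, 1038 and 1344 CPM at SCA1low, SCA1int and SCA1high, below the basal sum at each level. In LY6D- SCA1high cells it was 798 CPM, below the endothelial sum. The luminal sum thus does not show that the cells of a population were luminal.

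Which gene the tags of several members came from cannot be told apart, since annotated exons of 14 of the 40 genes overlap exons of another gene, mostly on the opposite strand, and the strand setting of the counting is not given in the sources used here. For 5 of them (Ccnd1, Ccnd3, Cdk4, Mcm7 and Cdc20) the shared stretch includes the 3' end, where the tags lie. Ccnd1 shares 1100 exonic bases with LTO1 between 144929931 and 144931701 on chromosome 7 (GENCODE M21 on GRCm38), and LTO1 held 50368 counts over the 12 libraries beside 63553 of Ccnd1. Ccnd3 shares 361 bases with Bysl (47599331 to 47599691), and in 5 of 12 libraries their counts lay within 5% of each other, as with 254 and 254 in LY6D+ SCA1high replicate 2. Ccna2 shares 510 bases with Exosc9 (chromosome 3, 36565218 to 36565727), with counts within 5% in 7 of 12 libraries. Ccnd2 shares 372 bases with Gm43126, which held 4833 counts beside its 58780.

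With the counts of overlapping genes subtracted, a choice made after seeing the data, the Ccnd1 difference between SCA1high and SCA1low was 1.35 ± 0.86 (edgeR adjusted p = 0.521) and no longer called. The Ccnd2 differences were then 2.61 ± 0.53 between LY6D states at SCA1low (adjusted p = 0.0123) and 2.49 ± 0.53 within LY6D- cells (adjusted p = 0.0148), both still called.

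**Figure D2:**
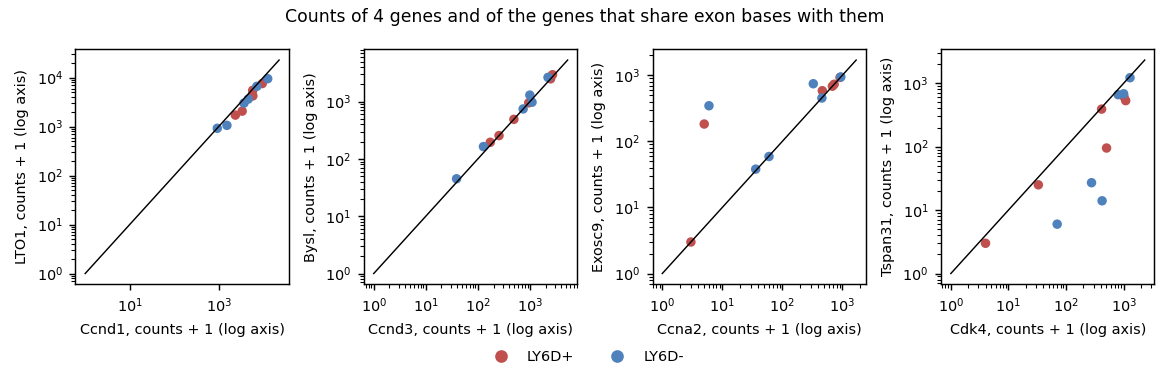
Counts + 1 (log axes) of Ccnd1, Ccnd3, Ccna2 and Cdk4 in the 12 libraries (LY6D+ red, LY6D- blue) against those of LTO1, Bysl, Exosc9 and Tspan31, which share exonic bases with them; the line marks equal counts. Ccnd3 and Bysl lie along the line, with counts within 5% in 5 of 12.

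Replication licensing genes load the MCM helicase onto origins (Cdc6, Cdt1 and Mcm2 to Mcm7) and clamp the polymerase to DNA (Pcna). Their summed level was lower in the SCA1low libraries. In LY6D+ cells it was 31.3 and 114 CPM at SCA1low, 195 and 214 CPM at SCA1int, and 194 and 228 CPM at SCA1high. In LY6D- cells it was 85.2 and 52.3 CPM at SCA1low, 187 and 213 CPM at SCA1int, and 151 and 130 CPM at SCA1high. All 4 SCA1low libraries lay below the 8 others. This sum is a description with no test, and its leading gene changed between libraries: Pcna led in both LY6D+ SCA1int libraries (51.3% and 50.7% of the sum), Mcm2 in LY6D+ SCA1high replicate 2 (29.2%) and Mcm5 in LY6D- SCA1low replicate 1 (53.9%). Over the 9 genes, the median log2 fold change between SCA1high and SCA1low was 1.89, with 8 of 9 above 0, against a median of 0.15 over all tested genes. The summed level of 5 seminal vesicle markers was 467 to 14824 CPM in SCA1low, 545 to 4469 CPM in SCA1int and 272 to 757 CPM in SCA1high libraries, and its part was not tested.

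No licensing gene passed the test by itself with edgeR. Pcna stood at 20 and 4.2 CPM (SCA1low), 100 and 109 CPM (SCA1int) and 37.9 and 1.53 CPM (SCA1high) in LY6D+ cells, against 3.87 and 13.8, 30.9 and 22.4, and 68.7 and 64.3 CPM in LY6D- cells at the same levels. Its highest population was thus SCA1int in LY6D+ cells and SCA1high in LY6D- cells. Between SCA1int and SCA1low the Pcna difference on the log2 scale was 2.35 ± 1.06 (edgeR adjusted p = 0.505). Mcm7 stood at 2.22 and 2.33, 28.9 and 30.9, and 31 and 37.9 CPM in LY6D+ cells at SCA1low, SCA1int and SCA1high, against 0.968 and 2.16, 64.4 and 24.5, and 12.4 and 18.1 CPM in LY6D- cells. All 4 of its SCA1low libraries lay below the 8 others. Mcm7 had a log2 fold change of 3.60 ± 1.37 between SCA1high and SCA1low (edgeR adjusted p = 0.299) and 4.26 ± 1.41 between SCA1int and SCA1low (adjusted p = 0.424). DESeq2 called Mcm7 in both. With the counts of Cops6 and Ap4m1, which share exonic bases with Mcm7, subtracted, 0 counts of Mcm7 were left in all 4 SCA1low libraries. The same held for LY6D+ SCA1int replicate 2, LY6D+ SCA1high replicate 1 and LY6D- SCA1high replicate 1, and at most 299 were left elsewhere. Which gene the Mcm7 tags came from thus cannot be told apart.

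Mcm6 stood at 2.76 and 55.5, 17.8 and 15.2, and 20.7 and 34.9 CPM in LY6D+ cells at SCA1low, SCA1int and SCA1high, against 1.08 and 6.58, 33.6 and 89.4, and 4.38 and 0.424 CPM in LY6D- cells. Its LY6D+ SCA1low libraries lay far apart, so the population mean says little. Of the remaining licensing genes, Mcm2 had 0 counts in replicate 1 of all 3 LY6D+ populations and 85 to 624 counts in replicate 2. Mcm3 ranged from 0.7 to 48.9 CPM, Mcm4 from 0 to 30.9, Mcm5 from 0.156 to 47.9 and Cdt1 from 0.545 to 25.9 CPM. Cdc6 reached 5.98 and 14.1 CPM in LY6D+ SCA1high libraries and at most 1.01 CPM elsewhere. Between LY6D states at SCA1high, Cdc6 had a log2 fold change of 7.85 ± 3.66 (edgeR adjusted p = 0.415), and without LY6D+ SCA1high replicate 2, 6.91 ± 3.96 (adjusted p = 0.677).

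Over all 35 genes and both neighbouring steps of SCA1, edgeR called 0 genes. Between SCA1int and SCA1low, 6 of 35 had an unadjusted p below 0.05, all higher at SCA1int (0.334% of all tested genes called, 9.65% with an unadjusted p below 0.05, 5.97% as higher). DESeq2 called 2 there (Mcm7 and Ccnb2), against 5.65% of all tested genes, and limma-trend 0, against 0.19%. At these levels Ccnb2 had 578 counts in LY6D+ SCA1int replicate 2 and at most 16 in any other library. Between SCA1high and SCA1int, 1 of 35 had an unadjusted p below 0.05 (0.138% of all tested genes called and 8.83% with an unadjusted p below 0.05). DESeq2 and limma-trend called 0 there, against 3.74% and 0.0524% of all tested genes. Within LY6D+ cells, SCA1high against SCA1low gave 0 edgeR calls and 3 genes with an unadjusted p below 0.05, Ccnd1, Cdc6 and Mcm3, all higher at SCA1high (0.327% and 8.61% of all tested genes, 3.01% as higher). DESeq2 called 2 (Mcm3 and Mcm7), against 8.09% of all tested genes, and limma-trend 0, against 0.183%.

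Nucleotide synthesis genes, which supply DNA precursors, summed to 3.44 to 46.3 CPM per library. Rrm1, the large subunit of ribonucleotide reductase, stood at 4.44 and 34.8, 31.4 and 1.91, and 15.2 and 13.9 CPM in LY6D+ cells at SCA1low, SCA1int and SCA1high, against 26 and 1.9, 2.21 and 2.4, and 0.313 and 28.2 CPM in LY6D- cells. The libraries of 1 population were over 10-fold apart in 3 of 6 populations (with 0.5 CPM added). Tk1, thymidine kinase, stood at 0.118 to 0.847 CPM in all 6 LY6D+ libraries, against 14.7 and 0.173, 7.26 and 16.1, and 0.0782 and 0.424 CPM in LY6D- cells at SCA1low, SCA1int and SCA1high. Rrm2, the small subunit of the same reductase, reached 17.4 CPM in LY6D- SCA1int replicate 1 and 7.88 CPM in LY6D- SCA1high replicate 2, and at most 1.94 CPM elsewhere. Tyms, thymidylate synthase, reached 11.2 and 9.78 CPM in LY6D- SCA1high cells and at most 2.47 CPM in any other library.

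Genes of S phase entry were scarcer. Ccne1 and Ccne2 encode E-type cyclins and Cdk2 their kinase. Ccne2 stood at 37.5 and 0.389, 14.9 and 2.91, and 0.405 and 19.5 CPM in LY6D+ cells at SCA1low, SCA1int and SCA1high, against 0.645 and 0.433, 0.772 and 0.343, and 1.09 and 27.3 CPM in LY6D- cells. Ccne2 shares 609 exonic bases with Ints8, with counts within 5% in 4 of 12 libraries, as with 490 and 503 in LY6D+ SCA1low replicate 1. In LY6D- SCA1high replicate 2 Ccne2 held 644 counts and Ints8 18. Which gene the other Ccne2 tags came from cannot be told apart. Ccne1 reached 13.8 CPM in LY6D- SCA1int replicate 1 and 16.4 CPM in LY6D- SCA1high replicate 2, and 2.83 CPM or less elsewhere. Cdk2 reached 15.3 CPM in LY6D+ SCA1high replicate 1 and 7.04 CPM in LY6D- SCA1high replicate 1, and 2.64 CPM or less elsewhere. In each case the other library of that population was much lower. E2f1, an activating E2F factor, had 31 counts in all and was not tested.

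The G2/M cyclins and mitotic kinases were led by Ccna2, cyclin A2, whose overlap with Exosc9 is given above. With Exosc9 counts subtracted, at most 3 counts of Ccna2 were left in any library, so its values cannot be assigned to cyclin A2. Ccna2 made up as much as 98.9% of the summed level of this role (LY6D+ SCA1high replicate 1). Ccna2 stood at 35.5 and 0.311, 36.8 and 48.4, and 32.8 and 0.235 CPM in LY6D+ cells at SCA1low, SCA1int and SCA1high, against 3.76 and 5.11, 16.8 and 0.429, and 35.6 and 39.9 CPM in LY6D- cells. Its libraries of 1 population were over 10-fold apart in 3 of 6 populations. Ccnb1, cyclin B1, had 884 counts (104 CPM) in LY6D+ SCA1high replicate 2 and 1 count (0.045 CPM) in replicate 1 of the same population. It reached 11.2 CPM in LY6D- SCA1high replicate 2 and 6.94 CPM in LY6D+ SCA1int replicate 2, and at most 1.79 CPM in the other 9 libraries. The likeness of LY6D+ SCA1int replicate 2 to LY6D+ SCA1high replicate 2 is given above, and its part was not tested. The log2 fold change of Ccnb1 between SCA1high and SCA1low was 4.74 ± 2.24 (edgeR adjusted p = 0.404) and, without LY6D+ SCA1high replicate 2, -0.27.

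Cdk1, the kinase of cyclins A and B, stood at 1.38 and 0.156, 16.6 and 1.27, and 0.045 and 0.118 CPM in LY6D+ cells at SCA1low, SCA1int and SCA1high, against 0.323 and 2.25, 7.26 and 0.172, and 12.6 and 20.9 CPM in LY6D- cells. At SCA1high the LY6D+ libraries lay below the LY6D- ones, with a log2 fold change of -7.62 ± 3.70 (edgeR adjusted p = 0.423), and without LY6D+ SCA1high replicate 2, -8.56 ± 5.29 (adjusted p = 0.677). Ccnb2, cyclin B2, had 578 of its 616 counts in LY6D+ SCA1int replicate 2. Plk1, a mitotic kinase, stood at 31.4 CPM in LY6D+ SCA1low replicate 2 and 25.6 CPM in LY6D- SCA1int replicate 2, and at most 0.866 CPM elsewhere. The Aurora kinase genes were nearly silent: Aurka had 64 counts in all, 99.2% of its CPM in LY6D- SCA1low replicate 2, and Aurkb had 1.

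Genes of chromosomes, spindle checkpoint and mitotic exit were lower in sum in LY6D+ libraries. Their summed level in LY6D+ cells was 5.06 and 52.1 CPM at SCA1low, 42.4 and 7.57 CPM at SCA1int, and 42.9 and 1.88 CPM at SCA1high. In LY6D- cells it was 126 and 97.5 CPM at SCA1low, 200 and 69.6 CPM at SCA1int, and 90.1 and 98.7 CPM at SCA1high. All 6 LY6D+ libraries lay below all 6 LY6D- libraries in this sum, which is a description with no test. The endothelial marker sum was 9.01 to 226 CPM in LY6D+ libraries against 134 to 2074 CPM in LY6D- libraries, ranges that overlap. Within LY6D- cells it averaged 236, 736 and 2072 CPM at SCA1low, SCA1int and SCA1high. The spindle checkpoint sum averaged 112, 135 and 94.4 CPM there. The part of the endothelial markers was not tested. The leading gene of the spindle checkpoint sum changed between libraries. Top2a was first in 5 of 12 and Birc5, Cenpf, Mki67 or Ube2c in the others. The mean sum of the G2/M cyclins and mitotic kinases was higher in LY6D+ cells, again with no test. It was 35.7, 70.7 and 68.8 CPM in LY6D+ cells at SCA1low, SCA1int and SCA1high. In LY6D- cells it was 9.41, 26.2 and 60.9 CPM. At SCA1high the libraries overlapped, at 33.1 and 105 CPM in LY6D+ against 48.7 and 73.1 CPM in LY6D- cells. Ccnb1 made up 99.4% of the sum of 105 CPM. Ccna2, whose values cannot be assigned to cyclin A2, led in most other LY6D+ libraries. The 32 replication and mitosis genes together summed to 117 to 369 CPM in LY6D+ and 169 to 454 CPM in LY6D- libraries, which overlap.

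Top2a (chromosome 11, 98992943 to 99024189, minus strand) stood at 0.919 and 49.3, 0.809 and 1.27, and 6.02 and 1.76 CPM in LY6D+ cells at SCA1low, SCA1int and SCA1high, against 16.3 and 88.9, 117 and 41.4, and 31.3 and 21.3 CPM in LY6D- cells. The groups overlapped through LY6D+ SCA1low replicate 2. Its log2 fold change between LY6D+ and LY6D-, averaged over SCA1 levels, was -3.35 ± 1.03 (edgeR adjusted p = 0.0763). Top2a was called by DESeq2 (-3.44), and by edgeR without LY6D+ SCA1low replicate 2 (-4.93 ± 1.44, adjusted p = 0.039) or LY6D- SCA1low replicate 1 (-3.61 ± 1.06, adjusted p = 0.032). Without LY6D- SCA1low replicate 2 it was -2.88 ± 1.18 (edgeR adjusted p = 0.204). Birc5, which encodes the chromosomal passenger protein survivin, stood at 0.153 and 1.09, 0.378 and 0.953, and 6.07 and 0 CPM in LY6D+ cells, against 57.5 and 6.23, 16.6 and 14.9, and 41.9 and 18.7 CPM in LY6D- cells. The groups did not overlap, by a margin of 6.07 against 6.23 CPM. Birc5 had a log2 fold change of -4.51 ± 1.52 (edgeR adjusted p = 0.0973). Without LY6D- SCA1low replicate 2, the library at 6.23 CPM, it was -4.88 ± 1.61 (edgeR adjusted p = 0.0786). Ube2c, the ubiquitin-conjugating enzyme of the anaphase-promoting complex, stood at 1.76 and 0.156, 8.63 and 0.529, and 0.045 and 0.118 CPM in LY6D+ cells, against 50.7 and 2.08, 0.103 and 0.0858, and 16 and 16.7 CPM in LY6D- cells. Its LY6D- SCA1int libraries were as low as the LY6D+ ones.

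Mki67, the proliferation marker Ki-67, is named here after its values were seen. It had 806 counts (34.1 CPM) in LY6D- SCA1high replicate 2 and 0 in replicate 1, and 218 and 148 counts (11.2 and 12.7 CPM) in LY6D- SCA1int cells. It stood at 0.538 and 0 CPM in LY6D- SCA1low cells and at 0 to 4.29 CPM in LY6D+ cells, so the high libraries were those of LY6D- SCA1int and 1 of LY6D- SCA1high. Cenpf, a kinetochore protein, ranged from 0 to 34 CPM, and Cdc20, an activator of the anaphase-promoting complex, from 0 to 21.8 CPM. With the counts of Elovl1, which shares exonic bases with Cdc20, subtracted, 0 counts of Cdc20 were left in every library. Which gene the Cdc20 tags came from thus cannot be told apart. The checkpoint kinases were near 0, with 94 counts of Bub1, which was not tested, and 99 of Bub1b over all libraries.

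Averaged over the SCA1 levels, edgeR called 0 of the 35 genes between LY6D+ and LY6D- cells, where 2.48% of all tested genes were called. An unadjusted p below 0.05 was found for 1 gene higher (Ccnd2) and 4 lower (Top2a, Birc5, Tyms and Cdkn1b) in LY6D+ cells, against 20.4% of all tested genes, 10.2% in each direction. DESeq2 called 4, all lower in LY6D+ cells (Tyms, Cdkn1b, Top2a and Birc5), where it called 15.1% of all tested genes, 9.09% as lower. Limma-trend called 0, against 1.43%. The log2 fold change of Ccnd2 was 0.91 ± 0.29 (edgeR adjusted p = 0.0812) and that of Tyms -5.44 ± 1.92 (adjusted p = 0.111). The median over the 35 genes was -0.19, with 17 above and 18 below 0, against 0.03 over all tested genes.

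At SCA1high edgeR called 0 of 35 genes between LY6D states (0.262% of all tested genes), with 1 higher and 4 lower at an unadjusted p below 0.05, against 3.77% and 7.95% of all tested genes (11.7% in all). DESeq2 called 3 there (Ube2c, Tyms and Cdk1, all lower in LY6D+ cells), against 8.21% of all tested genes, 5.95% as lower, and limma-trend 0, against 0.072%. At SCA1int edgeR called 0 (0.203% of all tested genes), with 3 lower at an unadjusted p below 0.05 (Top2a, Cdkn1b and Ccnd3), against 6.17% of all tested genes, 2.93% as lower. DESeq2 called 2 (Cdkn1b and Top2a), against 3.77% of all tested genes, and limma-trend 0, against 0.0458%. At SCA1low DESeq2 called 7 of the genes beside the single edgeR call, 3 higher and 4 lower in LY6D+ cells, against 12.6% of all tested genes, 5.9% as higher and 6.71% as lower. Ccnb2, which is among the 7, had 0 and 2 counts in these LY6D+ libraries and 0 and 0 in the LY6D- ones.

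**Figure D3:**
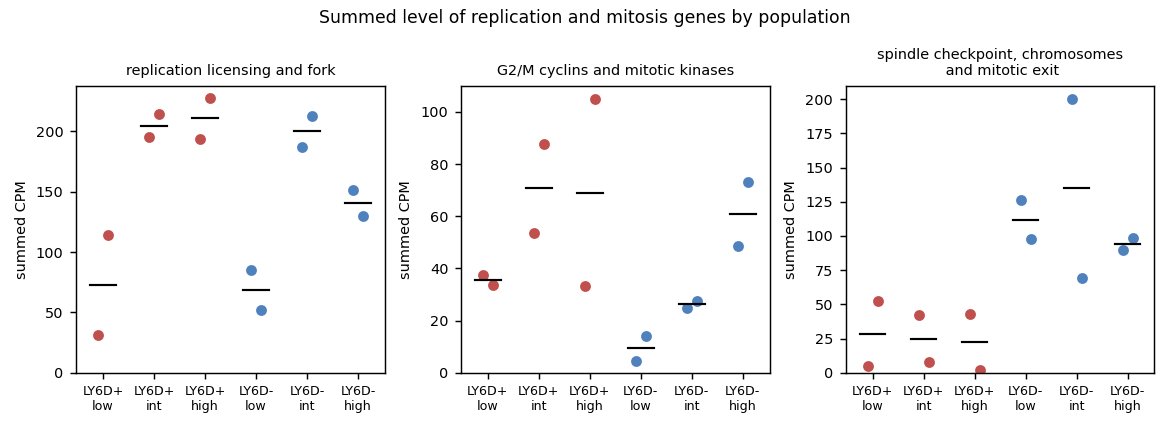
Summed CPM (linear axes) of the replication licensing, G2/M and spindle genes in each library, LY6D+ (red) left of LY6D- (blue) and SCA1 low to high; points are libraries and bars the mean of 2. The licensing sum is at most 114 CPM in SCA1low libraries and 130 CPM or more in the others, and the spindle sum is at most 52.1 CPM in LY6D+ and at least 69.6 CPM in LY6D- libraries. The G2/M sum has a higher mean in LY6D+ cells at each SCA1 level, with overlapping libraries at SCA1high. It includes Ccna2, which shares exonic bases with Exosc9.

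The CDK inhibitor genes Cdkn1a and Cdkn1b had counts in every library. Cdkn1a, which encodes p21, stood at 84.3 and 53.8, 135 and 61.5, and 143 and 44.8 CPM in LY6D+ cells at SCA1low, SCA1int and SCA1high, against 75.3 and 87.6, 54 and 80.8, and 226 and 140 CPM in LY6D- cells. LY6D- SCA1high replicate 1 was the highest library, and replicate 2 of that population lay within the range of the LY6D+ libraries. Its log2 fold change between SCA1high and SCA1low was 0.81 ± 0.60 (edgeR adjusted p = 0.599). Cdkn1b, which encodes p27, stood at 7.97 and 24.7, 2.7 and 3.02, and 43 and 29.4 CPM in LY6D+ cells, against 49 and 28, 44.1 and 99.1, and 31.7 and 28.4 CPM in LY6D- cells. At SCA1int the LY6D+ libraries lay below the LY6D- ones, with a log2 fold change of -4.64 ± 1.68 (edgeR adjusted p = 0.665). Cdkn1c, which encodes p57, had 506 of its 523 counts in LY6D+ SCA1int replicate 1 and was not tested.

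Replicate libraries of these genes lay about as far apart as those of other genes. Over the 35 tested genes, the median absolute log2 ratio between the 2 libraries of a population was 1.21, against 1.19 over all 15270 tested genes, with 0.5 CPM added. Libraries of 1 population were over 10-fold apart in 22.4% of gene and population pairs, against 22% over all tested genes. The abundant members varied less: Ccnd1, Ccnd2, Ccnd3, Cdkn1a and Cdkn1b were over 10-fold apart in none of the 6 populations. For 8 of the 35 genes (22.9%, against 26.1% of all tested genes) more than 50% of the CPM lay in 1 library. The 11 mitotic genes with both CCAAT and CHR words, Cdk1 and Top2a among them, had their highest level in 6 different libraries. Of these, 4 genes peaked in LY6D- SCA1high replicate 2 (Cdk1, Mki67, Bub1 and Bub1b) and 3 in LY6D- SCA1int replicate 1 (Top2a, Cdc20 and Cenpf), and the other 4 in a library each. The median SE of the log2 fold change was 1.58 for LY6D+ against LY6D- averaged over SCA1 levels, which gives a 95% interval of 8.56-fold to either side. For SCA1high against SCA1low it was 1.71, or 10.3-fold, and smaller differences in the median member lie within such an interval. These intervals are before adjustment and are not a limit of detection. Over the members the SE ran from 0.28 to 9475.28 in the LY6D comparison and from 0.11 to 4846.08 in the SCA1 comparison.

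**Figure D4:**
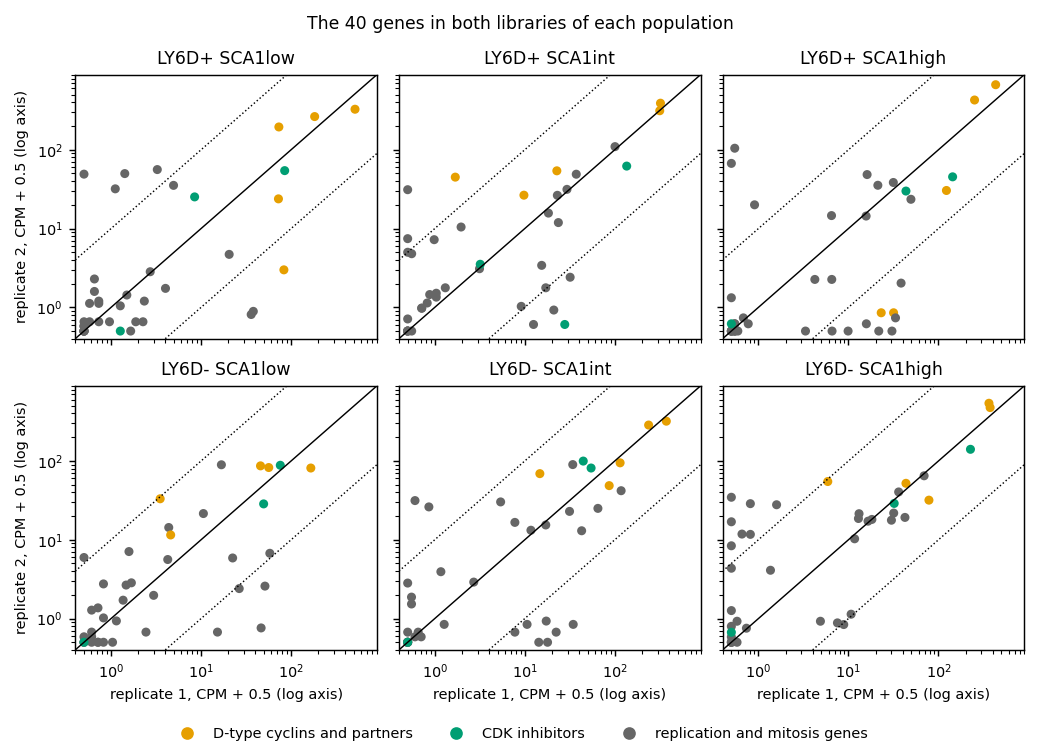
CPM + 0.5 (log axes) of the 40 genes in replicate 1 and replicate 2 of each population; the solid line marks equal levels and the dotted lines 10-fold differences. The D-type cyclins (orange) and CDK inhibitors (green) lie mostly between the dotted lines, while many replication and mitosis genes (grey) are near 0 in 1 library and above 10 CPM in the other.

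**Figure D5:**
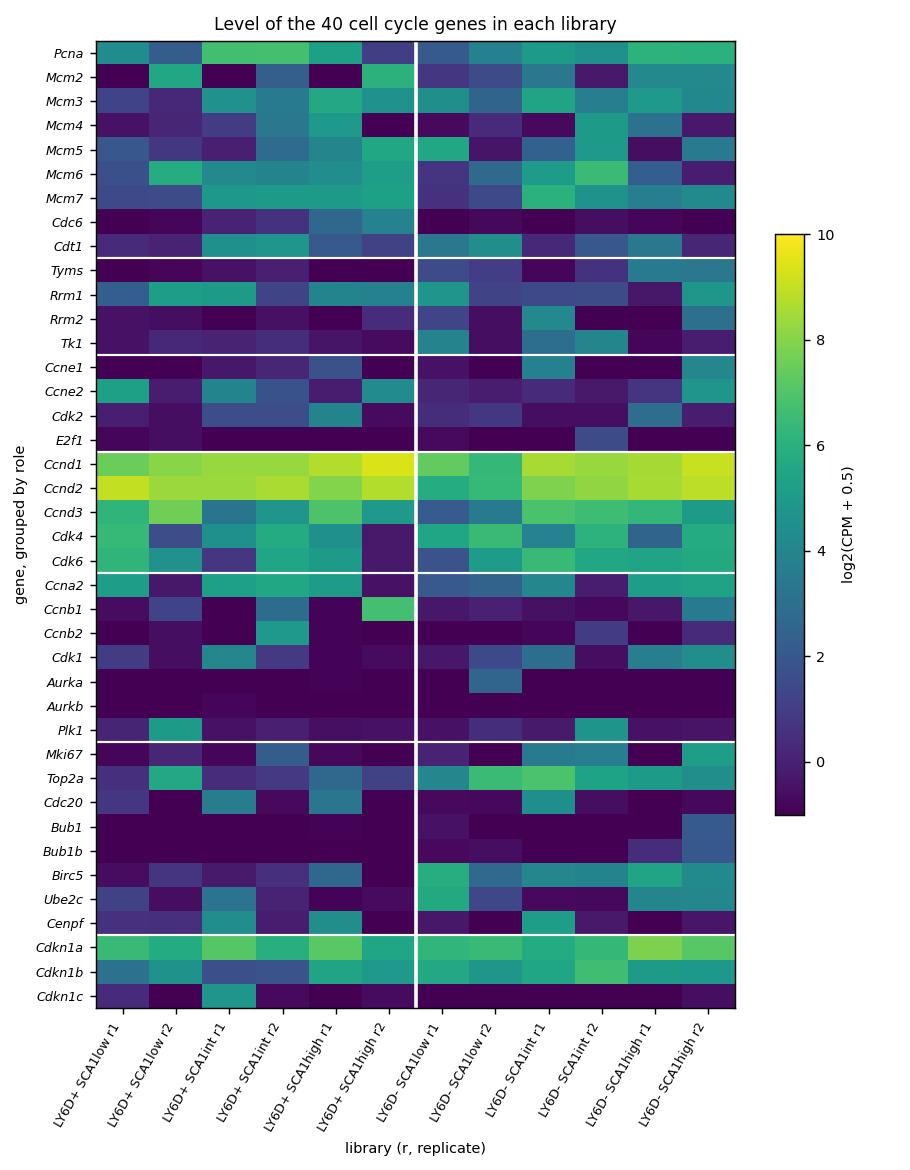
Level of the 40 genes, as log2(CPM + 0.5), in the 12 libraries (r, replicate), with the 6 LY6D+ libraries left of the white vertical line and the 6 LY6D- libraries right of it; horizontal lines separate the roles. Ccnd1 and Ccnd2 are bright in every library, and most mitotic genes are bright in 1 or a few libraries that differ from gene to gene.

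Other genes of the pathway were taken from 9 lists of 139 genes, of which 109 were tested. In LY6D+ against LY6D- cells, averaged over SCA1 levels, 3 were called with edgeR, each at a higher level in LY6D+ cells, and 16 were found by an unadjusted p below 0.05, which is 2.75% and 14.7% of the 109 genes. Over all tested genes the shares were 2.48% and 20.4%. DESeq2 called 14 of 104, against 15.1% of all tested genes, and limma-trend 2, against 1.43%. Among 14 genes of MYC and growth factor entry (12 tested), Egfr, the receptor of epidermal growth factor, ranged from 15.9 to 173 CPM in LY6D+ libraries, against 0.156 to 26.9 CPM in LY6D- libraries. Its log2 fold change was 4.13 ± 0.96 (edgeR adjusted p = 0.0153), and the call was lost without LY6D- SCA1high replicate 1 (3.77) or LY6D- SCA1int replicate 2 (3.96), and kept with both doubted libraries left out (3.64). Fgfr2, a fibroblast growth factor receptor, ranged from 62.9 to 252 CPM in LY6D+ libraries, against 2.69 to 101 CPM in LY6D- libraries, with a log2 fold change of 2.46 ± 0.59 (edgeR adjusted p = 0.0181). That call was lost without LY6D+ SCA1int replicate 1 (2.31), LY6D- SCA1high replicate 2 (2.19) or LY6D- SCA1int replicate 2 (2.27), and kept with both doubted libraries left out (2.84). Myc itself was at most 6.51 CPM in all libraries but LY6D+ SCA1int replicate 2, at 49.4 CPM. Among 12 quiescence and growth arrest genes (12 tested), Gas6, a ligand of TAM receptor kinases, had a log2 fold change of 0.70 ± 0.18 (edgeR adjusted p = 0.0271), a call lost in 7 of 20 alternatives, among which is that without LY6D- SCA1low replicate 2 (0.55). At SCA1low it was 1.56 ± 0.31 (adjusted p = 0.0104), the 1 pathway gene called there, and lost that call without LY6D- SCA1low replicate 2 (1.27 ± 0.35, adjusted p = 0.0585). The basal marker sum, given above, was higher in the same LY6D+ cells, and its part was not tested.

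The lists of the RB and E2F family, INK4 inhibitors, DREAM and MuvB, origin recognition with GINS and polymerases, other nucleotide synthesis, kinetochore with spindle and condensin, and p53 target genes held no edgeR call in that comparison, with 11 of their genes at an unadjusted p below 0.05. Over all tested genes 2.48% were called there and 20.4% had an unadjusted p below 0.05. Between SCA1high and SCA1low, averaged over LY6D states, edgeR called 0 of the 109 genes, with 13 higher and 4 lower at an unadjusted p below 0.05. Over all tested genes 1.21% were called, and 6.4% were higher and 5.67% lower by an unadjusted p. DESeq2 called 7 of the 100 it gave a p for, against 9.87% of all tested genes, and limma-trend 0, against 0.792%. The median log2 fold change of the 109 was 0.69, against 0.15 over all tested genes.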

How the data were processed

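The authors deposited read counts per gene and a normalized signal for the same 12 libraries. Per the submitters' processing notes, the tools included STAR 2.5.1, cutadapt 1.9.1, featureCounts from Subread, and edgeR, with mm10 as the genome build. Neither an annotation release nor how strand was treated is given in the sources used here. Gene positions are those of GENCODE M21 on GRCm38.

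The deposited counts were tested with edgeR 4.0.16 (R 4.3.3): filterByExpr by population, TMM scaling, 1 mean per population over all 12 libraries, and quasi-likelihood tests with Benjamini-Hochberg adjustment over 15270 genes, called at an adjusted p below 0.05. SE is the log2 fold change divided by the square root of F. The procedure was tested on simulated data. IDs without a symbol held 0.475% of counts. Alternatives were RLE size factors, library size only, no filter, DESeq2 1.42.0, a replicate block, limma 3.58.1 (limma-trend) on log2(deposited signal + 1), each library left out, and both doubted libraries left out. The members and lists were chosen with earlier results of these data known. All 40 genes are accounted for. Members called in any comparison and the 3 with the highest mean CPM of each role are described by library; other genes given with single values were chosen after their values were seen.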

Additional observations from a re-analysis of the deposited data

How the results depend on the processing

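Of 799 values of 40 named fold changes under the alternatives, 741 kept their direction and side of the threshold, 29 lost a call, 24 gained one and 5 changed sign or went to 0. The sign of Ccnb1 changed without LY6D+ SCA1high replicate 2, to -0.45 for SCA1high against SCA1int and -0.27 for SCA1high against SCA1low, and with both doubted libraries left out, to -0.41 and -0.03. With single libraries left out, these Ccnb1 values ran from -0.45 to 8.91 and from -0.27 to 5.96. Ccnd3 for SCA1high against SCA1low within LY6D- cells was 0.00 with overlapping genes subtracted, an alternative chosen after seeing the data. The causes were not tested.

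With DESeq2, listed genes called numbered 4 for LY6D+ against LY6D- averaged over SCA1 levels, 3 at SCA1high, 2 at SCA1int and 7 at SCA1low. For SCA1high against SCA1low they were 3 averaged over LY6D states, 2 within LY6D+ and 2 within LY6D- cells, and there were 2 for SCA1int against SCA1low, 1 for the interaction and 6 for any difference. With RLE size factors the counts were 0 for LY6D at SCA1low, for SCA1high against SCA1low averaged over LY6D states, and for any difference. With library size only, SCA1high against SCA1low averaged and within LY6D- cells, and any difference, gave 2 each. Limma-trend and subtraction of overlapping genes gave 0 for the averaged SCA1high against SCA1low comparison and for any difference, and leaving out both doubted libraries gave 0 for that SCA1 comparison. RLE moved the median of all genes by -0.27 in that comparison and -0.41 for LY6D at SCA1low, and library size only moved it by 0.48 in that SCA1 comparison.

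With 1 library left out, counts ranged from 0 to 1 for LY6D averaged, LY6D at SCA1low, SCA1high against SCA1low averaged, and the interaction, from 0 to 2 within LY6D- cells and for any difference, and were 0 to 0 in the other comparisons. A lone library was then assumed to vary like the other populations.

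The deposited column names start with HN6 for all replicate 1 and HN7 for all replicate 2 libraries, with no meaning given. Over 15 pairs of same-numbered libraries, correlations of deviations ran from -0.28 to 0.209 (median 0.0115). Of these, 2 were over 0.1, both between LY6D+ populations (0.193 and 0.209). The main fit did not pair libraries by number, and the low median does not show that they were unpaired. The replicate block changed no count of listed genes called: Ccnd1 was 1.58 for SCA1high against SCA1low (edgeR adjusted p = 0.00987), and Ccnd2 was 2.66 at SCA1low (adjusted p = 0.00422) and 2.63 within LY6D- cells (adjusted p = 0.00304).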
